A study of Mus musculus with 18 samples.

Results

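The 10 genes described here encode proteins of the cell surface by which marrow stromal cells are recognised and sorted. They are Cd34, Cd44, Ly6a (SCA-1), Thy1 (CD90), Eng (CD105), Nt5e (CD73), Alcam (CD166), Mcam (CD146), Cd9 and Cd200. They were chosen by name, with earlier results of these data known, and are 10 of the 27179 genes in the table. RNA was sequenced from 18 cultures of mouse bone marrow mesenchymal stem cells (MSCs), with 6 libraries in each of 3 groups. The MSCs were the cells of flushed tibias and femurs that adhered to plastic, taken from male C57BL6 mice and used at passages 2 to 5. Young MSCs came from mice of 6 weeks and old MSCs from mice of 18 to 24 months, and both were cultured alone for 7 days. Rejuvenated old MSCs were old MSCs, 100000 cells a culture, that spent the same 7 days in wells shared with young MSCs, with a Transwell membrane of 0.4 µm pores between them. Old MSCs grown beside old MSCs were not analysed here, and the presence of a second cell layer and the age of its donors cannot be told apart. The labels name no genetic change in any group. The labels number the samples as biological replicates but do not say whether each came from its own animal, so p-values measure the spread between these samples.

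Cultured stromal cells are usually described by what they carry and what they lack, since no single surface protein defines them. Human MSCs are recognised by CD73, CD90 and CD105 and by the lack of CD34, whereas mouse MSCs are more often recognised by SCA-1 and CD44, and their CD34 varies with strain and culture. The proteins differ in what they do. CD34 is a sialomucin that can bind selectins, CD44 is a hyaluronan receptor, and SCA-1 and CD90 are small proteins held in the membrane by a lipid anchor. Endoglin, from Eng, is a co-receptor for TGF-beta family ligands, and CD73, from Nt5e, is the ectoenzyme that makes adenosine from AMP outside the cell. CD166 and CD146 are adhesion molecules of the immunoglobulin superfamily, CD9 is a tetraspanin, and CD200 is a ligand that restrains myeloid cells through its receptor.

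Part of the promoter is given for markers that differed most with donor age, to show what DNA lies shortly before their start. These are Cd34, Cd200 and Nt5e, which were higher in young MSCs, and Eng and Alcam, which were higher in old MSCs. Each line holds the 200 bases that lie from 250 to 51 bases before the RefSeq gene start in GRCm38.p6 (mm10), 5′ to 3′ on the strand of the gene. The motifs searched were the TATA box TATAAA, the CCAAT box CCAAT and the GC box GGGCGG, each on both strands, and capitals mark the matches. The letters of the 3 motifs do not overlap in the matches shown, except that GC boxes can overlap each other.
Cd34 (chr1:194938571-194938770, plus strand): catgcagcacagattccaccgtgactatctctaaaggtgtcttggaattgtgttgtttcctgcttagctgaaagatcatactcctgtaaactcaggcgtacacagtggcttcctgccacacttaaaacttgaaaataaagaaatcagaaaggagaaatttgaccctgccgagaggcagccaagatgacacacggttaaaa
Cd200 (chr16:45409104-45409303, minus strand): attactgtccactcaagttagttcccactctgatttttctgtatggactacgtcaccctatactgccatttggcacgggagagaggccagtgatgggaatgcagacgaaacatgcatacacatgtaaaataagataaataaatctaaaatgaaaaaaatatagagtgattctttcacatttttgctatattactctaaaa
Nt5e (chr9:88327359-88327558, plus strand): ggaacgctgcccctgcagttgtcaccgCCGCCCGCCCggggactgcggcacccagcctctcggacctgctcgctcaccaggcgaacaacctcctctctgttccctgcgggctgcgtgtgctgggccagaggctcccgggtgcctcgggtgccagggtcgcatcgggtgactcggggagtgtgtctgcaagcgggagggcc
Eng (chr2:32646345-32646544, plus strand): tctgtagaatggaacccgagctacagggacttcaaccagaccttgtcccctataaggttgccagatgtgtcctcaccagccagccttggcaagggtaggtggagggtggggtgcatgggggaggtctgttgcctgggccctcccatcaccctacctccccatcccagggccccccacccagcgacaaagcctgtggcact
Alcam (chr16:52453132-52453331, minus strand): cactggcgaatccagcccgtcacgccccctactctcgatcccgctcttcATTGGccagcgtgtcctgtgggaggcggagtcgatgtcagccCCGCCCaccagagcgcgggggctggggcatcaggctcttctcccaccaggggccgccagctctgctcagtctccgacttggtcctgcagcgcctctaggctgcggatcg
The stretch of Nt5e held 2 GC boxes and 17 CpG pairs, and that of Alcam held 1 CCAAT box, 1 GC box and 16 CpG pairs. In Cd34, Cd200 and Eng none of the motifs was present in this window, and the CpG pairs numbered 4, 3 and 2. Bases nearer to the start than 51 were not searched, so a motif there would not be seen. Over the same window of all 32851 promoters in the reference table, 9.14% held a TATA box, 28.4% a CCAAT box and 24.6% a GC box, with a median of 4 CpG pairs. Windows with fewer and with more CpG pairs than that median therefore occurred both among the markers higher in young MSCs and among those higher in old MSCs. Cd34 stood at the median. Of the 10 markers, 8 were in the promoter table, and Thy1 and Ly6a were not.

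The libraries held between 22936251 and 29559194 reads on genes, and values are normalized counts, the reads of a gene divided by 1 size factor for each library. Among stromal transcripts, those of Col1a1 and the PDGF receptors were abundant in all groups. Col1a1, the main chain of type I collagen, averaged 99171 ± 5971, 109095 ± 4989 and 81975 ± 4141 in young, old and rejuvenated old libraries (SD, n = 6 each). The PDGF receptor transcripts were also high in every group, with Pdgfra at 14051 ± 194, 4075 ± 185 and 4587 ± 255 and Pdgfrb at 10773 ± 231, 17355 ± 231 and 16169.6 ± 562. Markers of macrophages were not evenly spread. The 16 listed macrophage genes summed to 1200.3 to 1321 in the young libraries, 16596 to 20638 in the old and 16635 to 20192 in the rejuvenated old, and the defining Adgre1 was at 0 in every young library and at 296 ± 29.7 in old MSCs. Csf1r stood at 112 ± 11.8, 815 ± 54.1 and 849 ± 71.6, and Itgam at 1.24 ± 0.49, 275 ± 27.3 and 385 ± 53.1. Lyz2 was the largest part of the old and rejuvenated old sums. Of the 15 genes tested, 13 were lower and 2 higher in young than in old MSCs, where 44.1% and 41.6% of all genes were. The 2 higher were Mertk and Aif1. Of the 15, 9 had a young mean under 10 and passed the mean filter of the test by their level in the other groups. The 12 haematopoietic markers summed to 281 to 310.2, 2182 to 2652 and 1897 to 2311 in young, old and rejuvenated old MSCs, with Ptprc (CD45) at 0, 179 ± 16.6 and 149 ± 18.1. The 12 general stromal genes summed to 614362 to 653872, 586845 to 621688 and 511366 to 567150. Within that sum 6 genes were higher and 6 lower in young than in old MSCs, where 41.6% and 44.1% of all genes were. Dcn was at 5040 ± 215, 269 ± 28.4 and 408 ± 47.3. Lum was at 42.8 ± 9.06, 0.995 ± 1.23 and 0.161 ± 0.394, and passed the mean filter of the test only by its young level. The 12 endothelial genes summed to between 317 and 415 over all 18 libraries, with Pecam1 (CD31) at no more than 22.9 and Cdh5 at no more than 4.05 in any library. That sum held opposite differences. Of the 5 genes tested, 3 were higher and 2 lower in young than in old MSCs, where 41.6% and 44.1% of all genes were. Vwf was at 51.8 ± 11.6 in young and 127 ± 18.3 in old MSCs. Kdr was at 85.7 ± 15.7 and 9.12 ± 5.55. Kdr and Esam, both among the 3 higher, passed the mean filter only by their young level. The 7 marrow stroma genes, with Cxcl12 at 9227 ± 166 in young and 197374 ± 7680.4 in old MSCs, summed to 29957 to 32277, 240891 to 260105 and 268203 to 333008, and Lepr among them was at 36.2 ± 5.11, 378 ± 31.8 and 308 ± 43.9. The pericyte and smooth muscle genes summed to 46228 to 48997, 122015 to 134672 and 125859 to 144376, with the pericyte gene Rgs5 at 1.71 ± 1.73, 19.5 ± 7.92 and 21.7 ± 9.95. The part of these marker genes in the differences below was not tested. In bulk RNA, fewer cells of a type and less RNA per cell cannot be told apart.

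One library stood apart from its group. Of the genes with at most 3 reads in every old library and a young mean of at least 100, of which there were 58 (Thy1 among them), replicate 1 of the rejuvenated old MSCs held a median of 2.83% of the young mean, and the other 5 libraries of its group held from 0 to 0.108%. It had the highest level of its group for 50 of the 58. That rule was set after the values were seen, and the results for Cd34, Cd44, Thy1 and Mcam are given with and without this library.

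The order of the 10 markers by level was first compared within each group, per kilobase of merged exons, since longer transcripts collect more reads. Ly6a and Cd9 led in all 3 groups. Per kilobase, Ly6a averaged 20830.0 ± 4237, 5091 ± 611 and 10705 ± 1125 in young, old and rejuvenated old MSCs (SD, n = 6), above 99.8%, 98.5% and 99.4% of the genes tested. Cd9 averaged 4352 ± 123, 4801 ± 283 and 6023 ± 277 per kilobase, and its libraries overlapped those of Ly6a only in old MSCs. The third place changed hands. In young MSCs it was held by Cd34 at 961 ± 21.4 per kilobase, and in old and rejuvenated old MSCs by Eng at 1813 ± 72.2 and 1912 ± 55.4. Cd44 took the next place in every group, at 315 ± 12.8, 436 ± 27.9 and 354 ± 39.0 per kilobase. Thy1 followed in young MSCs, and below it the ranges of Mcam, Eng, Nt5e and Cd200 each overlapped the next, while Alcam was last at 4.23 ± 1.22 per kilobase. In old and in rejuvenated old MSCs Alcam and then Mcam followed Cd44. Cd34 came after them, at 3.17 ± 0.454 and 13.2 ± 20.5 per kilobase, with a range that overlapped Nt5e in old and Mcam in rejuvenated old MSCs. The second overlap came from replicate 1 of the rejuvenated old MSCs, without which Cd34 averaged 4.84 ± 0.985 per kilobase (SD, n = 5) and ended at 5.74, under the lowest Mcam library at 17.6. Thy1 and Cd200 lay at the bottom of both groups with overlapping ranges, at no more than 1.36 per kilobase on average. In rejuvenated old MSCs Thy1 also overlapped Nt5e, as its replicate 1 stood at 7.22 per kilobase and Nt5e ended at 2.49. Without that library Thy1 ended at 0.318, under the lowest Nt5e library at 1.43.

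**Figure D1:**
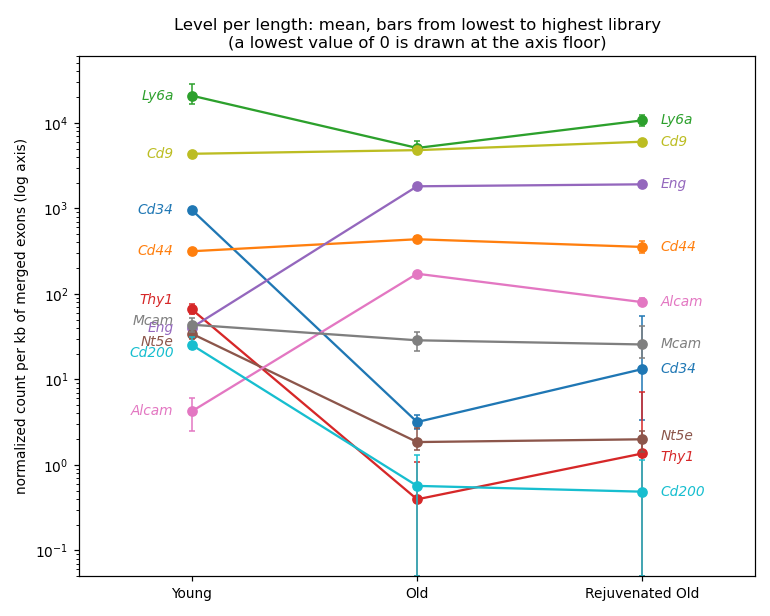
Mean normalized count per kilobase of merged exons (log axis) for the 10 surface markers in the 3 groups, with bars from the lowest to the highest of 6 libraries. Cd34 dropped from 961 in young to 3.17 in old MSCs while Eng went from 40.3 to 1813, and the lines of old and rejuvenated old MSCs are close to level for Eng, Nt5e and Cd200.

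Young and old MSCs were compared first, to ask which of the markers differ with the age of the donor. All 10 markers passed the test (limma, adjusted p under 0.05), 6 higher and 4 lower in young MSCs, where 85.7% of the 14353 genes tested passed, 41.6% higher and 44.1% lower. The libraries of both ages did not overlap for 9 of the 10, 6 higher and 3 lower in young MSCs, against 73.9% of all genes tested, 35.7% higher and 38.2% lower. The exception was Cd9. A call in this contrast is thus common, and the sizes set the markers apart from each other. The median difference over the 10 was 1.31 on the log2 scale, against -0.02 over all genes, and ran from 8.19 for Cd34 to -5.48 for Eng. All 10 entered the test through a mean of at least 10 over the 18 libraries. Thy1 and Cd200 had group means under 10 in old and in rejuvenated old MSCs, so they passed that filter by their level in young MSCs. The counts and the median above include both, but their calls in this contrast rest on that filter and are not taken as support. The median over the 10 is for that reason not read as a shift of the markers toward young MSCs.

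**Figure D2:**
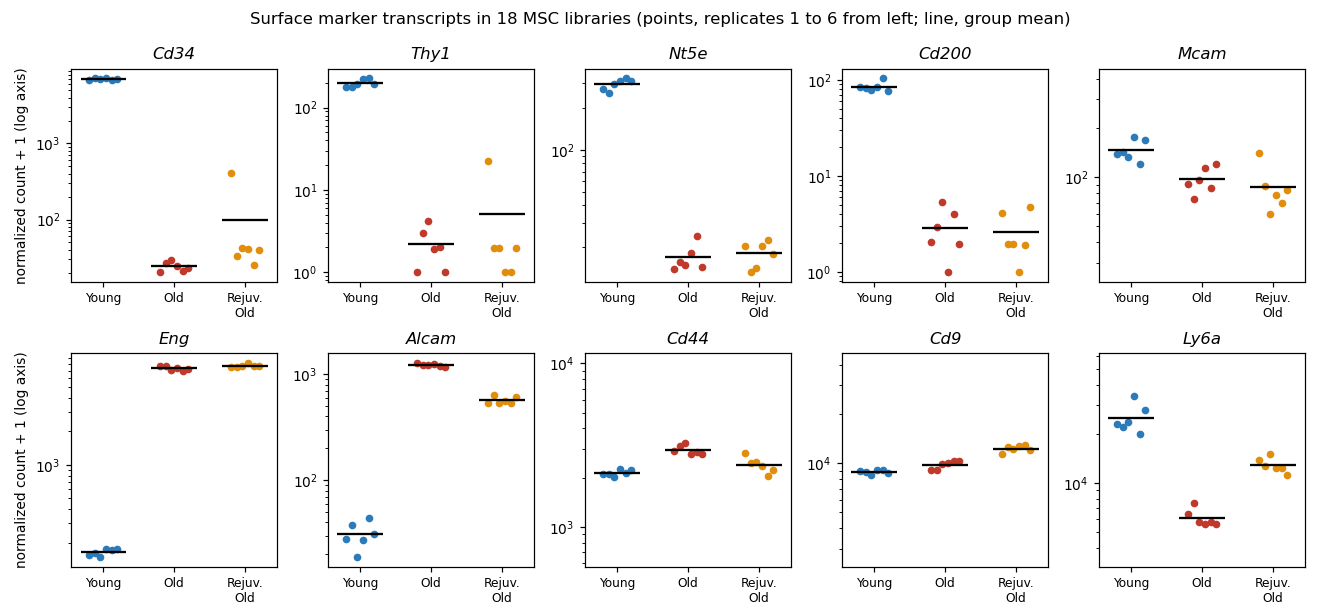
Normalized count plus 1 (log axis, each panel on its own range) of the 10 markers in each of the 18 libraries, with a line at the mean of each group. Young libraries lie apart from old ones in every panel but Cd9, and replicate 1 of the rejuvenated old MSCs is the high point of its group for Cd34 (402), Thy1 (21.6) and Mcam (140.0).

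Cd34 differed most. The young libraries ran from 6787 through a median of 7008 to 7191 normalized counts, and the old libraries from 19.4 through 22.9 to 28.0. Every young library was thus above every old one, with means of 7006 ± 156 and 23.1 ± 3.31 (SD, n = 6), a ratio of 303. The log2 difference was 8.19 ± 0.41 (SE, adjusted p = 9.40e-15). Cd34 lies on chromosome 1, whose genes were lower in young MSCs by a median of 0.66 on the log2 scale relative to all autosomes, and relative to its own chromosome the difference was 8.88.

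Thy1, Cd200 and Nt5e were also present in young MSCs and low in old ones. Thy1 ran from 175 through 192 to 227 normalized counts in young and from 0 through 0.956 to 3.23 in old MSCs, where 7 reads were counted in all. By counted reads the ratio was 169.8, with an exact 95% interval of 82.1 to 423 that covers counting error only. Cd200 ran from 75.2 through 82.7 to 103 in young and from 0 through 1.52 to 4.31 in old MSCs, and the 481 and 11 reads gave a ratio of 46.0 (interval 25.5 to 92.7). The fitted differences of these low genes depend on the pseudocount and were 6.70 ± 0.55 for Thy1 and 5.07 ± 0.38 for Cd200. No p-value is given for them, since both genes passed the filter by their young level. Nt5e kept a low level in old MSCs, from 12.9 through 14.4 to 23.1 normalized counts, against 254 through 302 to 326 in young MSCs. Its means of 295 ± 26.7 and 15.9 ± 3.83 differed by 4.15 ± 0.15 on the log2 scale (adjusted p = 3.60e-17). For all 3 genes the lowest young library was far above the highest old one.

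Ly6a and Mcam were higher in young MSCs by smaller amounts. Ly6a, which encodes SCA-1, ran from 19881 through 23277 to 33910.0 in young and from 5629 through 5778 to 7488 in old MSCs, so that it stayed abundant in the lower group. The log2 difference was 2.02 ± 0.10 (adjusted p = 8.68e-15). Mcam ran from 120.4 through 139.8 to 176 in young and from 72.9 through 93.1 to 119 in old MSCs, with the groups nearly touching. Its difference was 0.61 ± 0.16 (adjusted p = 0.00149). Over the alternatives it ran from 0.43 to 0.68, with adjusted p from 0.000133 to 0.0175. Mcam lies on chromosome 9, whose genes were higher in young MSCs by a median of 0.23 on the log2 scale relative to all autosomes.

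Eng and Alcam went the other way. Eng ran from 147 through 164 to 175 normalized counts in young MSCs and from 7008 through 7288 to 7681 in old MSCs, so the co-receptor transcript was 44.9 times higher in old cells by the ratio of means. The log2 difference of -5.48 ± 0.04 (adjusted p = 1.02e-29) had a 95% interval from -5.57 to -5.40. Alcam ran from 17.9 through 28.5 to 42.6 in young and from 1180.4 through 1222 to 1272 in old MSCs, a difference of -5.35 ± 0.13 (adjusted p = 7.62e-21). Alcam and Cd200 share chromosome 16, whose genes were lower in young MSCs by a median of 0.72, and relative to it the differences were -4.60 for Alcam and 5.82 for Cd200. Both lie on the same chromosome and differed in opposite directions.

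Cd44 and Cd9 differed least. Cd44 ran from 2021 through 2120.2 to 2255 in young and from 2776 through 2902 to 3239 in old MSCs, and was lower in every young library (log2 difference -0.47 ± 0.06, adjusted p = 8.83e-08). Cd9 ran from 8497 through 8890.1 to 9163 in young and from 9104 through 9986 to 10402 in old MSCs, with overlap. Its difference of -0.14 ± 0.04 (adjusted p = 0.00176) became -0.07 (adjusted p = 0.116) when libraries were scaled to the same total, the highest p of its alternatives, which began at 4.96e-05. Cd44 and Cd9 are also carried by macrophages, whose listed markers were 13 of 15 lower and 2 higher in young MSCs, where 44.1% and 41.6% of all genes were. Of those 15 genes 9 had a young mean under 10 and so passed the filter by their level in the other groups. The part of macrophages in both differences was not tested, nor was it for Eng and Alcam, which were also lower in young MSCs.

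**Figure D3:**
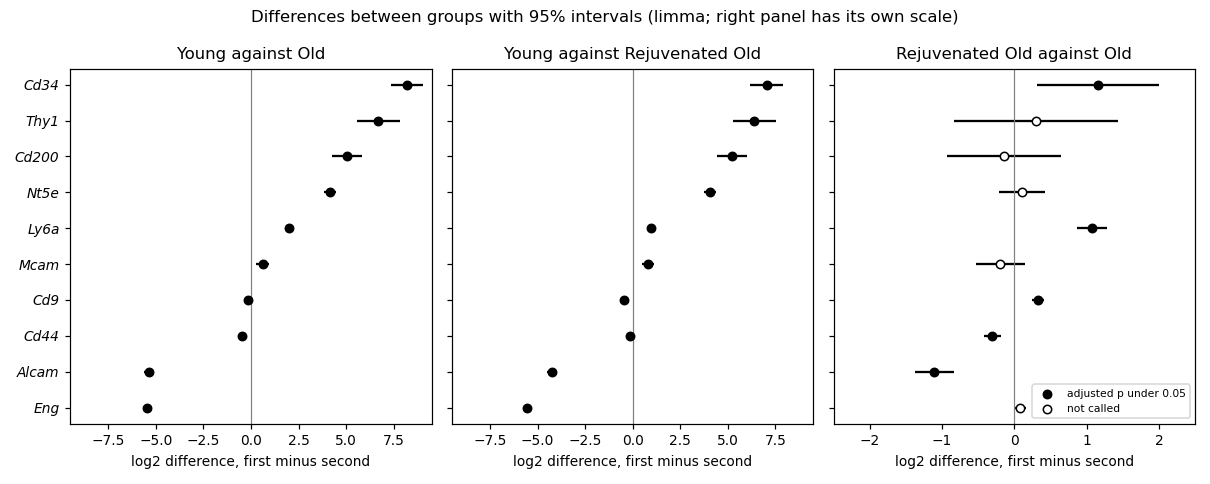
Log2 differences with 95% intervals (limma) for the 10 markers in the 3 comparisons, filled where the adjusted p was under 0.05, with a narrower scale in the right panel. With donor age the differences ran from -5.48 (Eng) to 8.19 (Cd34), and between rejuvenated old and old MSCs from -1.11 (Alcam) to 1.16 (Cd34).

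Rejuvenated old MSCs were then compared with old MSCs, to ask which markers differ after culture beside young cells. Of the 10 markers, 5 passed the test, where 41.6% of all genes tested did. Cd34, Ly6a and Cd9 were higher and Alcam and Cd44 lower after co-culture, 3 and 2 of 10, where 21.0% of all genes passed as higher and 20.6% as lower. Groups did not overlap for 3 of the 10 (Ly6a and Cd9 higher, Alcam lower), against 22.0% of all genes tested, 10.4% higher and 11.6% lower. Without replicate 1 of the rejuvenated old MSCs this held for 4 of the 10, 2 higher and 2 lower, against 25.3% of all genes tested. With every library included, the median difference over the 10 was 0.09 on the log2 scale and that over all genes 0.01. This contrast shares the old libraries with the contrast of young and old MSCs, so the values of both are given side by side and are not independent.

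Ly6a had the clearest rise. It ran from 11169 through 12518 to 15050.5 normalized counts in rejuvenated old MSCs, against 5629 through 5778 to 7488 in old MSCs, and each of the 6 libraries was above every old library. The means of 12899.5 ± 1356 and 6135 ± 737 differed by 1.07 ± 0.10 on the log2 scale (adjusted p = 1.67e-08). The level lay between those of old and young MSCs, and it stayed lower than in young MSCs by 0.94 ± 0.10 (adjusted p = 8.84e-09) with no overlap.

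Alcam fell. It ran from 536 through 550.3 to 639 in rejuvenated old MSCs, below the lowest old library at 1180.4, and the means of 570.0 ± 43.6 and 1226 ± 33.1 differed by -1.11 ± 0.13 (adjusted p = 3.98e-07). Young MSCs were lower still, by -4.24 ± 0.13 (adjusted p = 6.42e-19). Cd44 fell less, from 2954 ± 189 in old to 2399 ± 264 in rejuvenated old MSCs (log2 difference -0.30 ± 0.06, adjusted p = 0.000176). Its libraries ran from 2039.5 through 2409 to 2817 after co-culture, and 5 of the 6 lay below every old library. The highest was replicate 1 of the rejuvenated old MSCs. Without that library the groups did not overlap, and the difference from old MSCs was -0.35 (adjusted p = 7.72e-06). Against young MSCs the remaining difference of Cd44 was -0.16 ± 0.06 (adjusted p = 0.0125). It no longer passed with libraries scaled to the same total (-0.07, adjusted p = 0.256) or relative to its chromosome (-0.08, adjusted p = 0.180), over alternatives that began at 0.000809. Without replicate 1 of the rejuvenated old MSCs the difference was -0.11 (adjusted p = 0.0412).

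Cd9 rose above both other groups. It ran from 11371 through 12437 to 12908 after co-culture, over old libraries that ended at 10402 and young libraries that ended at 9163. The mean of 12312 ± 567 was higher than in old MSCs by 0.33 ± 0.04 (adjusted p = 4.11e-07), and young MSCs were lower than rejuvenated old MSCs by -0.47 ± 0.04 (adjusted p = 8.09e-11). Cd9 was therefore highest in the co-cultured cells, whereas Ly6a, Alcam and Cd44 had group means between those of old and young MSCs. The macrophage sum of rejuvenated old MSCs lay within the range of old MSCs for all 6 libraries. Of the 15 macrophage genes tested 1 was higher, 2 were lower and 12 were not called between both groups, where 21.0% of all genes were higher and 20.6% lower. The 1 higher was Itgam (275 ± 27.3 in old, 385 ± 53.1 after co-culture), and Cd68 was among the lower (1229 ± 112 and 983 ± 51.8). The part of macrophages in the rise of Cd9 was not tested.

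Cd34 rose by 1.16 ± 0.41 on the log2 scale (adjusted p = 0.0271), but the size rested on 1 library. Replicate 1 of the rejuvenated old MSCs had 402 normalized counts, and the other 5 libraries ran from 24.2 to 41.9, against 19.4 to 28.0 in old MSCs. Without replicate 1 the mean was 35.3 ± 7.18 (SD, n = 5) and the difference 0.57 (adjusted p = 0.000362), so a smaller rise was called in the libraries that remained. With all libraries the call was lost when only both groups were fitted (adjusted p = 0.0598), with a single prior variance (0.0564) and without old replicate 1 (0.0506), over a range of 0.000362 to 0.0598. By edgeR on the recovered reads the rise was 2.00 (adjusted p = 0.0163). The level after co-culture stayed far under that of young MSCs, by 7.04 ± 0.41 with replicate 1 included (adjusted p = 1.74e-13).

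Thy1 had the same library at its top. Replicate 1 of the rejuvenated old MSCs held 21 of the 24 Thy1 reads of its group and 21.6 normalized counts, which was 10.9% of the young mean, while the other 5 libraries held at most 0.951. The difference from old MSCs was 0.30 ± 0.55 (adjusted p = 0.699) and turned to -0.35 without that library (adjusted p = 0.435), over a range of 0.171 to 0.899. By edgeR and DESeq2 on the recovered reads it was 1.62 and 1.77, not called by either (adjusted p = 0.201 and 0.171). In the same library Cd34 stood at 5.73% of its young mean, whereas Nt5e at 6.63% and Cd200 at 3.67% lay within the ranges of the other 5 libraries, from 4.16% to 7.26% and from 0 to 4.48%.

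**Figure D4:**
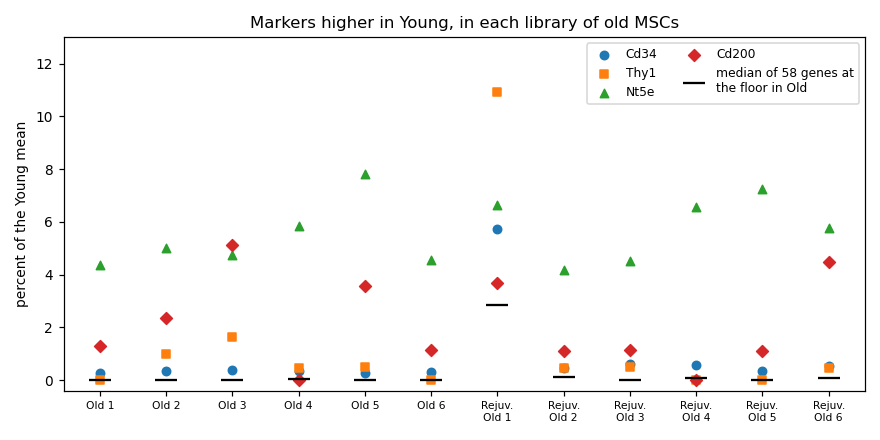
Level of Cd34, Thy1, Nt5e and Cd200 in each of the 12 libraries of old and rejuvenated old MSCs as a percent of the mean of young MSCs, with a bar at the median of 58 genes at the floor in old MSCs. Replicate 1 of the rejuvenated old MSCs stands at 5.73% for Cd34, 10.9% for Thy1 and 2.83% for the median gene, and its Nt5e and Cd200 lie among the other libraries.

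The remaining markers of this contrast were not called. Eng ran from 7557 through 7692 to 8158 after co-culture and from 7008 through 7288 to 7681 in old MSCs, with a difference of 0.08 ± 0.04 (adjusted p = 0.131) and a 95% interval of -0.01 to 0.16. An interval this narrow holds only small changes, against the -5.56 ± 0.04 by which young MSCs were lower than rejuvenated old ones (adjusted p = 9.05e-30). Nt5e ran from 12.3 through 18.1 to 21.4 and differed from old MSCs by 0.10 ± 0.15 (adjusted p = 0.638, interval -0.22 to 0.42), and young MSCs were higher by 4.05 ± 0.15 (adjusted p = 6.00e-17). Cd200 had 10 reads over the 6 rejuvenated old libraries and 11 over the 6 old ones, at which depth only a large difference could be seen (interval -0.93 to 0.65, adjusted p = 0.798). The ratio of young to rejuvenated old MSCs by counted reads was 52.6 for Cd200 (exact 95% interval 28.4 to 110.4) and 51.5 for Thy1 (34.4 to 80.7). Without replicate 1 of the rejuvenated old MSCs, 3 Thy1 reads were left in the group and the ratio was 348 (119 to 1690).

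Mcam, the pericyte-associated adhesion molecule, ran from 59.0 through 79.7 to 140.0 in rejuvenated old MSCs and differed from old MSCs by -0.20 ± 0.16 (adjusted p = 0.358). Without replicate 1, the highest library, the libraries ended at 87.8 and the difference was -0.35 (adjusted p = 0.0435), over alternatives from 0.0435 to 0.658. Young MSCs were higher than rejuvenated old MSCs by 0.80 ± 0.16 (adjusted p = 8.93e-05), with overlap. In the comparison of young with rejuvenated old MSCs all 10 markers passed, 6 higher and 4 lower, where 85.6% of all genes did, 41.5% higher and 44.1% lower. Thy1 and Cd200 are in that count but passed the filter by their young level. Groups did not overlap for 8 of the 10, 5 higher and 3 lower, against 70.5% of all genes tested, 34.0% higher and 36.5% lower. Without replicate 1 of the rejuvenated old MSCs, Mcam was higher in young MSCs by 0.95 (adjusted p = 9.32e-07, over alternatives from 9.32e-07 to 0.00110) with no overlap, as the lowest young library stood at 120.4. The groups then did not overlap for 9 of the 10, all but Cd44, against 71.8% of all genes tested.

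The proteins that bind the markers or act with them were examined next. Of 26 listed partners, 22 were tested. Between young and old MSCs 8 were higher and 12 lower, with a median of -0.25 on the log2 scale. Cd200r1 and Selp are among the 12 lower and in that median, although they passed the filter only by their level outside young MSCs. Between rejuvenated old and old MSCs 5 were higher and 7 lower, with a median of -0.05. Over all genes the medians were -0.02 and 0.01, 41.6% were higher and 44.1% lower in young than in old MSCs, and 21.0% were higher and 20.6% lower after co-culture.

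The receptors that signal with endoglin did not all follow Eng. Acvrl1 (ALK1), a type I receptor that endoglin assists, was lower in young than in old MSCs as Eng was, at 86.3 ± 11.8 against 538 ± 26.5 normalized counts (log2 difference -2.64 ± 0.07, adjusted p = 1.25e-19). After co-culture Acvrl1 rose to 765 ± 35.2 (0.51 ± 0.07, adjusted p = 8.09e-06), with every library above every old one. Tgfbr1, the other type I receptor listed, was also lower in young MSCs, at 836 ± 25.2 against 1618 ± 43.3 (-0.95 ± 0.03). Tgfbr2, the type II receptor of TGF-beta, was higher in young MSCs, at 22372 ± 439.9 against 2289 ± 80.0 (3.29 ± 0.05, adjusted p = 8.56e-24), and was lower still after co-culture at 1832 ± 228 (-0.33 ± 0.05, adjusted p = 4.38e-05). Tgfbr3 (betaglycan), the co-receptor related to endoglin, was higher in young MSCs at 11628 ± 434 against 5729 ± 303 (1.02 ± 0.04) and was not called after co-culture (-0.08 ± 0.04, adjusted p = 0.0804). Young MSCs thus had more transcript of Tgfbr2 and betaglycan, and old MSCs more of Eng, Acvrl1 and Tgfbr1.

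CD73 works in a chain in which ATP is cut to AMP, AMP to adenosine, and adenosine is sensed or taken up. Upstream of it, Entpd1 (CD39) was at 42.4 ± 7.23 in young and 42.3 ± 4.98 in old MSCs (adjusted p = 0.990), while Entpd2 was at 202 ± 15.7 and 38.0 ± 7.31 (log2 difference 2.39 ± 0.14, adjusted p = 1.78e-13). Enpp1, which makes AMP and pyrophosphate from ATP, was at 1452 ± 86.0 in young and 159.9 ± 15.6 in old MSCs (3.18 ± 0.07, adjusted p = 2.19e-21), and Enpp3 went the other way at 30.3 ± 3.53 and 194 ± 22.1 (-2.63 ± 0.10). Both Entpd2 and Enpp1 rose after co-culture, to 59.9 ± 12.5 (0.64 ± 0.14, adjusted p = 0.000831) and 217 ± 20.4 (0.44 ± 0.07, adjusted p = 3.22e-05). Alpl, the tissue-nonspecific alkaline phosphatase that can also release adenosine from AMP, was lower in young MSCs at 382 ± 45.6 against 1558 ± 50.2 (-2.03 ± 0.06).

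Downstream of CD73, the receptor transcript Adora2b was higher in young MSCs, at 581 ± 43.9 against 94.2 ± 13.1 (2.62 ± 0.10, adjusted p = 2.95e-17), and fell after co-culture to 69.9 ± 8.26 (-0.42 ± 0.10, adjusted p = 0.00121). Adora2a was at 36.7 ± 7.30 and 18.4 ± 6.99 in young and old MSCs (1.03 ± 0.23, adjusted p = 0.000303). Slc29a1 (ENT1), which carries adenosine across the membrane, was lower in young MSCs at 3428 ± 107 against 15094 ± 753 (-2.14 ± 0.04, adjusted p = 1.07e-23) and rose after co-culture to 17463 ± 784 (0.21 ± 0.04, adjusted p = 5.90e-05). Ada, which breaks adenosine down, was at 315 ± 19.7 in young and 307 ± 15.1 in old MSCs (adjusted p = 0.582). Nt5e and Adora2b were therefore both higher in young MSCs, and Alpl and Slc29a1 both higher in old MSCs.

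Binding partners that other cell types carry, Cd200r1, Selp and Cd6, were at or near 0 in young MSCs. Cd200r1, the receptor for CD200 and a gene of myeloid cells, was above 0 in 1 young library, at 2.02, and averaged 55.8 ± 12.2 in old and 52.1 ± 10.4 in rejuvenated old MSCs. Selp (P-selectin) was above 0 in 1 young library, at 1.03, and averaged 340.2 ± 17.8 in old and 290.5 ± 71.1 in rejuvenated old MSCs. Cd6, the lymphocyte receptor of CD166, was under the filter, at 0.534 ± 0.586, 4.20 ± 4.94 and 3.22 ± 1.20. Cd200r1 and Selp passed the filter only by their level in old and rejuvenated old MSCs, so their values are given with no test between young and old MSCs. Between rejuvenated old and old MSCs neither was called (adjusted p = 0.809 and 0.259).

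Inside the cell, CD44 is tied to actin by ezrin, moesin and radixin. Ezr was higher in young MSCs, at 4901 ± 127 against 1238 ± 55.9 (1.98 ± 0.05, adjusted p = 2.68e-20), and fell after co-culture to 926 ± 99.4 (-0.42 ± 0.05, adjusted p = 6.39e-07). Msn was lower in young MSCs, at 10479 ± 458 against 14982 ± 897 (-0.51 ± 0.05), and fell after co-culture (-0.19 ± 0.05, adjusted p = 0.00235) as Cd44 did. Rdx was at 2894 ± 101, 2389 ± 118 and 2303 ± 165 (0.28 ± 0.04, adjusted p = 3.03e-06, and -0.05 ± 0.04, adjusted p = 0.333). Hmmr, another hyaluronan receptor, was at 223 ± 44.6, 329 ± 37.7 and 327 ± 46.8 (-0.57 ± 0.11, adjusted p = 5.68e-05, and -0.01 ± 0.11, adjusted p = 0.951).

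Of the proteins that CD9 binds in the membrane, Ptgfrn was lower after co-culture, at 3091 ± 206 against 3996 ± 169 (-0.37 ± 0.04, adjusted p = 1.23e-07), whereas Cd9 was higher. Igsf8 was lower in young MSCs at 930.4 ± 59.5 against 1858 ± 96.9 (adjusted p = 1.51e-15) and was not called after co-culture (0.05 ± 0.05, adjusted p = 0.382). Cd81, the closest tetraspanin relative of Cd9, was at 15156 ± 294, 12699 ± 457 and 13460.3 ± 575 in young, old and rejuvenated old MSCs (0.26 ± 0.03, adjusted p = 8.78e-08, and 0.08 ± 0.03, adjusted p = 0.0363). The integrin chains to which CD90 binds, Itgav and Itgb3, were both lower in young than in old MSCs (-0.62 ± 0.04, adjusted p = 1.84e-12, and -0.37 ± 0.06, adjusted p = 6.03e-06) and both fell after co-culture (-0.12 ± 0.04, adjusted p = 0.0178, and -0.29 ± 0.06, adjusted p = 0.000494).

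Other surface proteins of stromal cells were counted as a second list. Of 35 genes 33 were tested. Between young and old MSCs 16 were higher and 15 lower, with a median of 0.02 on the log2 scale, where 41.6% and 44.1% of all genes passed. Ngfr is among the 16 higher, although it passed the filter only by its level in young MSCs. Between rejuvenated old and old MSCs 6 were higher and 15 lower, with a median of -0.11, where 21.0% and 20.6% of all genes passed. Ngfr is among those 15 too, with a mean under 10 in both groups, so its call there is not taken as support. Among these surface proteins, the partners and the close relatives of the markers, the gene lowest in young against old MSCs besides Selp was Mme (CD10), at 15.9 ± 4.12 in young and 1893 ± 144 in old MSCs (-6.85 ± 0.12, adjusted p = 3.18e-23). Those highest in young MSCs besides Tgfbr2 were Ly6c2, at 35.5 ± 6.18 against 1.00 ± 0.683, and Ngfr (CD271), at 68.1 ± 12.8 against 6.45 ± 2.87, both of which passed the filter only by their level in young MSCs and are given with no test in that comparison. Ngfr stood at 0.942 ± 1.46 after co-culture. Of the other genes of the 3 lists, those with the largest falls after co-culture were Itga6 (CD49f), at 100.5 ± 16.6 in old and 46.6 ± 20.2 in rejuvenated old MSCs (-1.19 ± 0.21, adjusted p = 8.79e-05), and Fap, at 237 ± 14.1 and 158 ± 19.7 (-0.59 ± 0.07, adjusted p = 1.31e-06).

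Close relatives of the markers were listed as well, 18 genes of which 12 were tested. Of these, 6 were higher and 4 lower in young MSCs, where 41.6% and 44.1% of all genes were. Ly6c2 is among the 6 higher, although it passed the filter only by its level in young MSCs. After co-culture 5 of the relatives were higher and 2 lower, where 21.0% and 20.6% of all genes were. Ly6c2 is among those 5 too, with a mean under 10 in both groups, so its call there is not taken as support. Podxl2, a relative of Cd34, was at 918 ± 45.9, 1208 ± 48.0 and 1393 ± 130.5 in young, old and rejuvenated old MSCs (-0.40 ± 0.05, adjusted p = 2.37e-07, and 0.20 ± 0.05, adjusted p = 0.0034), and Podxl at 18.9 ± 4.63, 1.32 ± 1.49 and 2.26 ± 1.38 was under the filter.

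The largest rise after co-culture among the same 3 lists was in Ly6c1, a neighbour of Ly6a in the Ly6 gene family. It ran from 1389.8 to 1728 in old and from 4645 to 5349 in rejuvenated old MSCs, with means of 1498 ± 126 and 5016 ± 289.9 (1.74 ± 0.08, adjusted p = 1.16e-13). Young MSCs had less of it than either, at 771 ± 128, so that Ly6c1 had its top level in co-cultured cells while Ly6a did not. Ly6c2 stood at 3.84 ± 2.06 after co-culture, under the mean of 10 of the filter. Ly6e was at 12063 ± 3835, 6307 ± 2103 and 8733 ± 1664 in young, old and rejuvenated old MSCs (0.93 ± 0.18, adjusted p = 6.65e-05, and 0.50 ± 0.18, adjusted p = 0.0318). Genes of this family are similar in sequence, and reads could be shared between them in counting, so values of single members are uncertain to that degree.

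Bst2 (tetherin) had the next largest rise of these lists after co-culture, with Ly6c2 left aside, at 15104 ± 4363, 4299 ± 2746 and 7088 ± 2244 in young, old and rejuvenated old MSCs (1.94 ± 0.26, adjusted p = 3.56e-07, and 0.84 ± 0.26, adjusted p = 0.013). Ly6a, Ly6e and Bst2 are known as genes that interferon can induce. Young replicate 4 was the highest of its group for all 3 genes, at 33910.0 for Ly6a, 18097 for Ly6e and 22701 for Bst2, and old replicate 2 was the highest of its group at 7488, 10397 and 9771. In rejuvenated old MSCs Ly6a was highest in replicate 3, at 15050.5, and Ly6e and Bst2 in replicate 1, at 11545 and 10264. Without old replicate 2 the Ly6a difference between rejuvenated old and old MSCs was 1.13, so its size did not rest on that library.

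**Figure D5:**
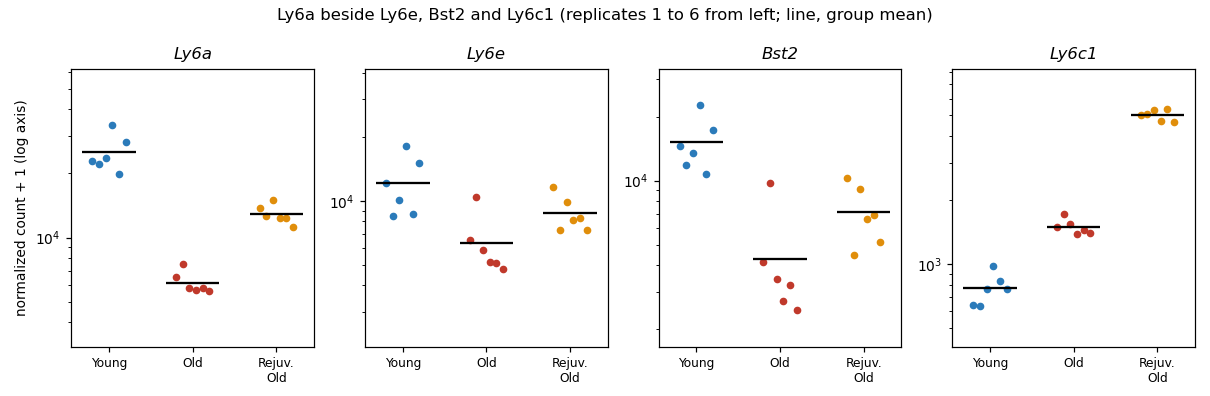
Normalized count plus 1 (log axis) of Ly6a, Ly6e, Bst2 and Ly6c1 in each of the 18 libraries, with a line at each group mean. Ly6a, Ly6e and Bst2 have their highest mean in young MSCs (25100.1, 12063 and 15104), and Ly6c1 has it in rejuvenated old MSCs (5016).

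Finally, for each marker the gene with the most similar pattern over the 18 libraries was found among 14200 genes, by Pearson's r of log2 normalized counts. With 3 groups that differ so widely, such values mainly follow the group means, and they are given as a description. Eng was matched most closely by Aplp1 (r = 1.00), which was at 0 in every young library and averaged 2240.4 and 2291 in old and rejuvenated old MSCs, and 2729 genes had an r of at least 0.95 with Eng. Alcam was matched by Fam189a1 (r = 0.997), Nt5e by the AP-1 gene Fosl2 (0.995), Thy1 by Prex2 (0.988) and Cd200 by the cardiac and mesothelial transcription factor gene Gata4 (0.987). Cd34 was matched by Eno1b (0.997), a copy of the enolase gene Eno1 whose reads are uncertain for that reason. Ly6a was matched by the asparagine synthetase gene Asns (0.985), at 4353, 1861 and 3053 in young, old and rejuvenated old MSCs, and 77 genes reached 0.95 with it. Cd9 was matched by Tmem119 (0.978) and Cd44 by Lnpep (0.970), with 9 and 13 genes at that level. For Mcam no gene reached 0.95, and the closest was Kcnq5 (0.898), at 84.5, 3.25 and 2.70 in young, old and rejuvenated old MSCs.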

How the data were processed

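RNA from 18 mouse MSC cultures (3 groups of 6) was sequenced after TruSeq stranded mRNA preparation. The authors aligned reads to mm10 with HISAT2, used StringTie and featureCounts for counting, and DESeq2 for normalization. Tool versions, gene annotation and strand setting are not given in the sources used here. The deposited values are a signal, the reads of a gene divided by 1 size factor per library. Dividing by the smallest step returned whole reads for 100% of values (tolerance 0.01 read), 22936251 to 29559194 per library. Of 27179 genes, 25275 matched RefSeq GRCm38.p6, from which chromosomes and promoters were taken, and 21572 had a merged exon length from GENCODE vM21.

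On the log2(value + 1) scale the groups were compared by limma 3.58.1 in R 4.3.3 (trend, 3 groups in 1 fit) over 14353 genes with a mean of at least 10, with Benjamini-Hochberg adjusted p under 0.05 as the threshold. Fold changes are on the log2(value + 1) scale, which understates those of low genes. Counting ratios have exact 95% intervals. Alternatives were the pseudocount, low-value filter, scaling, 2-group fits, a single prior variance, a replicate block, edgeR 4.0.16 and DESeq2 1.42.0 on recovered reads, values relative to the same chromosome, and leaving out each library. The tests were tried on simulated counts. Tables and plots used Python 3.11.15 (matplotlib 3.10.9, pandas 2.3.3, scipy 1.17.1, numpy 2.4.6).

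The markers and gene lists were chosen with earlier results of these data known. Named are all 10 markers, measured partners of a marker, the 3 largest rises and falls among called genes of 3 lists (other stromal surface proteins, partners and close relatives) in young and in rejuvenated old against old MSCs, the gene most like each marker, and defining cell type markers. Lyve1, Entpd3, Adora1 and other listed genes not named were counted only. Flow cytometry and other assays of the study were not analysed here. One listed partner is not reported here.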

Additional observations from a re-analysis of the deposited data

Results flagged for a closer look

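In groups of 6 libraries, the highest or lowest library was checked with Dixon's test at the 95% level for the 10 markers and for the other genes named with values. Of 171 groups checked 19 had such a library, and chance gives about 1 in 20 groups. Among the markers there were 5 in 30 groups. Replicate 1 of the rejuvenated old MSCs was the highest of its group for Cd34 at 402 normalized counts (others 24.2 to 41.9), for Thy1 at 21.6 (others 0 to 0.951) and for Mcam at 140.0 (others 59.0 to 87.8). Eng was highest in rejuvenated old replicate 4 at 8158 (others 7557 to 7772), and Cd200 in young replicate 5 at 103 (others 75.2 to 84.0).

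Of the partners and relatives, Ezr stood out in rejuvenated old replicate 1 at 1117 (others 840.0 to 931), the library that was high for Cd34. Old replicate 2 stood out for Bst2 at 9771 (others 2455 to 4167), Ly6e at 10397 (others 4763 to 6538) and Cd6 at 13.8 (others 0 to 4.01). In young MSCs the outlying values were Enpp3 at 37.0 and Rdx at 2701 in replicate 1, Podxl2 at 1007 and Pdgfra at 13667 in replicate 2, Itgam at 2.23 in replicate 3, Cd200r1 at 2.02 in replicate 4 and Selp at 1.03 in replicate 6. In rejuvenated old MSCs they were Mme at 1235 in replicate 5, Ngfr at 3.78 in replicate 2 and Cdh5 at 1.86 in replicate 5. Those of Cd200r1, Selp, Itgam, Ngfr and Cdh5 rest on a few reads.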

How the results depend on the processing

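Each of the 30 marker differences (10 markers in 3 comparisons) was recomputed under up to 30 alternatives, which gave 894 values. Of these, 884 kept the direction and the side of the threshold, 6 were no longer called, 1 became called and 3 turned in direction, and 24 of the 30 differences were alike under every alternative run. The changes concerned Cd34, Thy1, Mcam and Cd200 between rejuvenated old and old MSCs, Cd44 between young and rejuvenated old MSCs, and Cd9 between young and old MSCs. Leaving out single libraries, the Thy1 difference ran from -0.35 (without rejuvenated old replicate 1) to 0.55, and the Cd200 difference from -0.41 to 0.10, above 0 without old replicate 3 (0.07) and without rejuvenated old replicate 4 (0.10). With edgeR and DESeq2 on recovered reads the Thy1 difference was 1.62 and 1.77 in place of 0.30, not called by either, and with edgeR that of Cd34 was 2.00 in place of 1.16. These reversals on leaving out a library were of differences that were not called, at no more than 4 reads a library for Cd200. DESeq2 gave no adjusted p for Cd34, and Cd200 had no value with a filter at a mean of 50.

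The number of markers called stayed at 9 to 10 for young against old MSCs, 4 to 6 for rejuvenated old against old and 9 to 10 for young against rejuvenated old MSCs. Replicate numbers showed no sign of pairing, as same-numbered libraries deviated from their group means with correlations from -0.15 to 0.07. These correlations cannot show whether the design paired the samples, which the labels do not state. With the replicate number as a block, 10, 5 and 10 markers were called, and 5769 genes in place of 5971 between rejuvenated old and old MSCs. No scaling turned the direction of a marker.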
